A study of Mus musculus with 17 samples.

Results

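The genes described are the nuclear-encoded subunits of the mitochondrial respiratory chain and ATP synthase, taken as all mouse gene symbols that begin with Ndufa, Ndufb, Ndufc, Ndufs, Ndufv, Uqcr, Cox4 to Cox8 or Atp5, or are Sdha, Sdhb, Sdhc or Sdhd. The rule used names only and found 87 of 17097 measured genes, each read by the probe set of that gene with the highest mean over 17 arrays. They comprise 33 genes of complex I, 7 complex I assembly factors (Ndufaf1 and its namesakes, which build the complex but are not part of it), 4 of complex II, 7 of complex III, 19 of complex IV and 17 of the ATP synthase. Ndufa4 and Ndufa4l2 were placed with complex IV, of which Ndufa4 is now known to be a subunit, and Ndufs5-ps is named by the annotation as a pseudogene. Of the 87 genes 82 exceeded 4.71, the median signal of the whole table, on 3 or more arrays; Cox4i2, Cox7a1, Cox7b2, Cox8b and Cox8c were not. Ndufs5, Ndufa13, Ndufb1, Ndufb6, Cox7b and Uqcrh fit the rule but were not analysed here, nor were the subunits encoded by mitochondrial DNA.

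Cells came from male NOD mice, an inbred strain whose lacrimal (tear) glands become infiltrated by lymphocytes and which serves as a mouse model for Sjögren's disease. The 5 populations were sorted by flow cytometry: epithelial cells (CD45- CD326+) of the gland (3 arrays), B cells (B220+ CD3-) of the gland (4 arrays), CD4 T cells (CD3+ CD4+) of the gland (4 arrays), B cells of the spleen (3 arrays) and CD4 T cells of the spleen (3 arrays). The lymphocytes were also CD45+ and negative for NKp46, CD11b and CD11c. Gland donors were 16 weeks old. The spleen samples are labelled 16 weeks in the sample records and 4 weeks in the series' design text, so that tissue and age cannot be told apart if the latter holds. The gland was digested with enzymes, a step not given for the spleen, and no genotype or treatment beyond the strain is given. The labels do not say that the arrays of a group came from different animals, so p-values measure the spread between these samples only. In sorted cells in bulk, fewer cells expressing a gene and less RNA per cell cannot be told apart.

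The respiratory chain passes electrons from NADH (complex I) and succinate (complex II) through ubiquinone to complex III, and by cytochrome c to complex IV, which reduces oxygen. Complexes I, III and IV pump protons as they do so, and the ATP synthase uses the returning protons to make ATP. Each complex combines a few catalytic subunits, some of them encoded by mitochondrial DNA, with many accessory subunits encoded in the nucleus. Resting lymphocytes depend largely on this pathway for ATP, activated lymphocytes build more mitochondria as well as raising glycolysis, and secretory epithelia are rich in mitochondria.

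Many promoters of these genes hold short motifs bound by NRF1, by ETS factors such as GABPA, or by YY1, all known regulators of nuclear mitochondrial genes. RefSeq promoter windows of 300 bases (250 before and 50 after the start, mouse GRCm38.p6) were available for 70 of the 87 genes. The letters searched, on both strands, were CGCATGCG for NRF1, CCGGAAGT for ETS factors and AAGATGGC for YY1, and no match of one motif overlapped a match of another. The NRF1 letters stood in the windows of 11 of the 70 genes (15.7%, against 2.07% of 27025 genes with a window), the YY1 letters in 11 (15.7%, against 3.19%) and the ETS letters in 4 (5.71%, against 4.31%). The 5 stretches printed here belong to genes that were lower in gland B cells than in spleen B cells, as described further on; the windows of Uqcr11 and Atp5j hold the NRF1 letters as well, outside the stretch shown. Capitals mark the motif, on the gene's strand.
Ndufaf4 (NRF1; chr4:24897921-24897998, plus strand): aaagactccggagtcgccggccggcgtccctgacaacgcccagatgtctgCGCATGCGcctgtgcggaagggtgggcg
Atp5g2 (NRF1; chr15:102671061-102671138, minus strand): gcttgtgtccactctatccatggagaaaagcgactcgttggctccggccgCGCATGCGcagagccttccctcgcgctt
Uqcr11 (ETS; chr10:80406860-80406937, minus strand): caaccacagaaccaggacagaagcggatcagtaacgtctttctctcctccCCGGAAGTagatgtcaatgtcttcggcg
Atp5j (YY1; chr16:84835037-84835114, minus strand): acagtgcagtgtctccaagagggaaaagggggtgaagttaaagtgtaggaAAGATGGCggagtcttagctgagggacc
Atp5pb (YY1, read on the other strand as GCCATCTT; chr3:105959239-105959316, minus strand): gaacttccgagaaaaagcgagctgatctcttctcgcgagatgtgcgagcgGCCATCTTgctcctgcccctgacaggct
At least 1 of the 3 motifs stood in the windows of 24 of the 70 genes (34.3%, against 9.03% of all genes), and of 7 of the 17 that had a window among the 20 lower in gland B cells. A match is a run of letters and not a measured binding site.

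Levels are log2 RMA signals (RMA is a method that corrects background, equalises arrays and combines probes), and a difference of 1 is a 2-fold change. Averaged over the 87 genes, gland epithelium stood at 9.12 ± 0.04 (SD, n = 3), gland B cells at 8.87 ± 0.09 (n = 4), gland CD4 T cells at 9.04 ± 0.02 (n = 4), spleen B cells at 9.08 ± 0.06 (n = 3) and spleen CD4 T cells at 9.10 ± 0.09 (n = 3). The 4 gland B cell arrays read 8.93, 8.86, 8.74 and 8.95 and all lay below each of the other 13 arrays, which ran from 9.002 to 9.163. The gland B cell group had the lowest mean of the 5 groups for 53 of the 87 genes, against 12.1% of all genes. Those 53 comprised 24 of the 33 complex I genes, all 4 complex II genes, 5 of 7 complex III genes, 6 of 19 complex IV genes, 12 of 17 ATP synthase genes and 2 of 7 assembly factors. Epithelium had the highest mean for 38 of the 87 (28.7% of all genes).

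**Figure D1:**
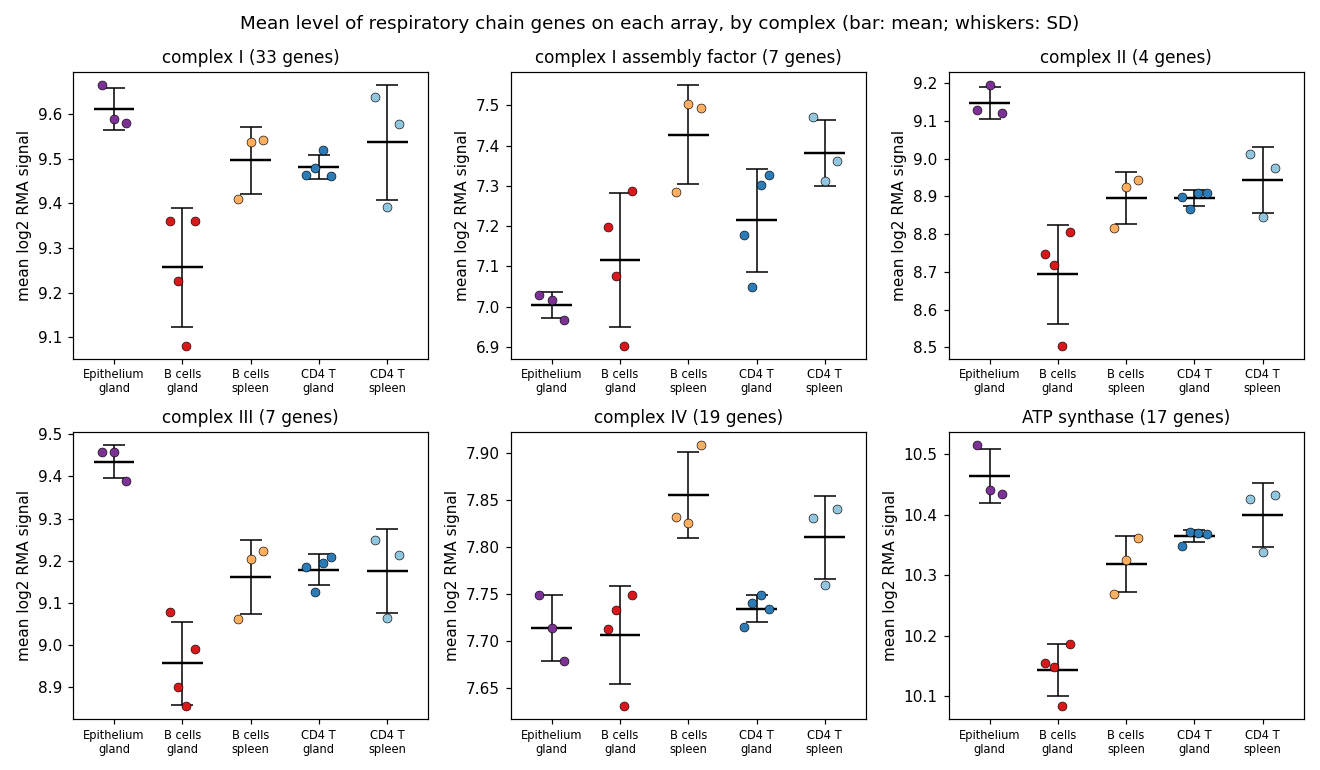
Mean log2 RMA signal over the genes of each complex on each array (points), with the group mean (bar) and SD (whiskers). The gland B cell arrays averaged 9.26 for complex I and 10.14 for the ATP synthase, below the other groups, while complex IV ran from 7.71 to 7.85 in all 5 group means.

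Lineage markers matched the labels. The mean of 5 B cell markers was 9.77 to 9.83 in gland B cells and 9.89 to 10.07 in spleen B cells, against at most 4.94 elsewhere. The 5 T cell markers averaged at least 10.40 in CD4 T cells, and Epcam, the CD326 antigen used to sort the epithelium, stood at 10.46, 10.81 and 10.77 in epithelium. Epithelial array 1 also held leukocyte RNA, with Ptprc (CD45) at 9.62 against 2.42 and 2.36 in arrays 2 and 3, and with the T cell markers at 6.18 against 3.69 and 3.50. Gland lymphocytes in turn carried epithelial RNA: the mean of 7 epithelial markers was 5.81 to 6.08 in gland B cells, against 3.92 to 4.03 in spleen B cells, and 5.94 to 6.35 in gland CD4 T cells, against 3.89 to 4.00 in spleen CD4 T cells. The mean of 6 lacrimal secretory markers was 8.01 to 8.47 in gland B cells, against 4.02 to 5.24 in spleen B cells, and 8.20 to 8.32 in gland CD4 T cells, against 3.73 to 4.65 in spleen CD4 T cells. Markers of red cell precursors (mean of 3) went the other way, at 4.52 to 5.28 in gland B cells, against 5.97 to 6.49 in spleen B cells, and at 4.33 to 5.04 in gland CD4 T cells, against 6.04 to 6.34 in spleen CD4 T cells. The epithelial, secretory and red cell sets each differed in the same direction in B and CD4 T cells. Endothelial markers (mean of 4) did not, at 4.18 to 4.83 in gland B cells, against 3.96 to 4.24 in spleen B cells. In CD4 T cells the endothelial mean was 3.61 to 3.83 in the gland, against 4.09 to 4.16 in the spleen. That difference lay in Pecam1 (group means of 6.09 in the gland, against 7.11 in the spleen) and Cdh5 (2.80 against 3.37). Kdr (3.24 against 3.27) and Emcn (2.70 against 2.75) hardly differed. The part of all these RNAs in the gland and spleen comparisons was not tested.

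The first comparison asks how B cells that have entered the gland differ from those of the spleen, which the study used as a steady-state control. Respiratory chain genes were lower in the gland: 20 of the 87 were called lower (23.0%, against 9.87% of all genes) and 0 higher (7.79% of all genes), at an adjusted p under 0.05 from limma's moderated test with Benjamini-Hochberg adjustment over all 17097 genes. Among the 8694 genes whose mean level was above the median gene, 15.1% were called lower. The differences were small. The difference was below 0 for 82 of the 87 genes, with a median of -0.18, whereas 8513 of all 17097 genes were below 0, with a median of 0.00. For 42 of the 87 genes every gland array lay below every spleen array (16.1% of all genes), and for 0 every gland array lay above (14.5% of all genes). An unadjusted p under 0.05 was found for 44 of the 87 genes, against 5035 of all 17097 genes and 3556 of the 8694 genes above the median level. Only Cox6b2 was called with a difference of 2-fold or more (1.6% of all genes were called lower and 2.58% higher by that much). The count of 20 was 12 without gland B cell array 3, 7 without spleen B cell array 2 and 8 without spleen B cell array 3. It was 10 when only the 7 B cell arrays were fitted. Spleen B cell array 3 stood above arrays 1 and 2 for myeloid markers (mean of 5, at 5.66 against 4.48 and 5.15). The same held for the mean of 5 T cell markers, at 5.13 against 4.44 on both. The single markers were divided. The myeloid marker Lyz2 read 8.79 on array 3, against 3.89 and 6.10. Csf1r, Cd68 and Adgre1 read 4.10, 6.57 and 6.31 there, against 4.21, 6.60 and 6.35 on array 2, and Itgam ran from 2.48 to 2.53. Cd3e, Cd3d and Cd3g were highest on array 3, but Cd4 (4.67, against 5.02 and 4.55) and Cd5 (4.84, against 5.03 and 5.11) were not. The part of these RNAs in the counts was not tested.

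**Figure D2:**
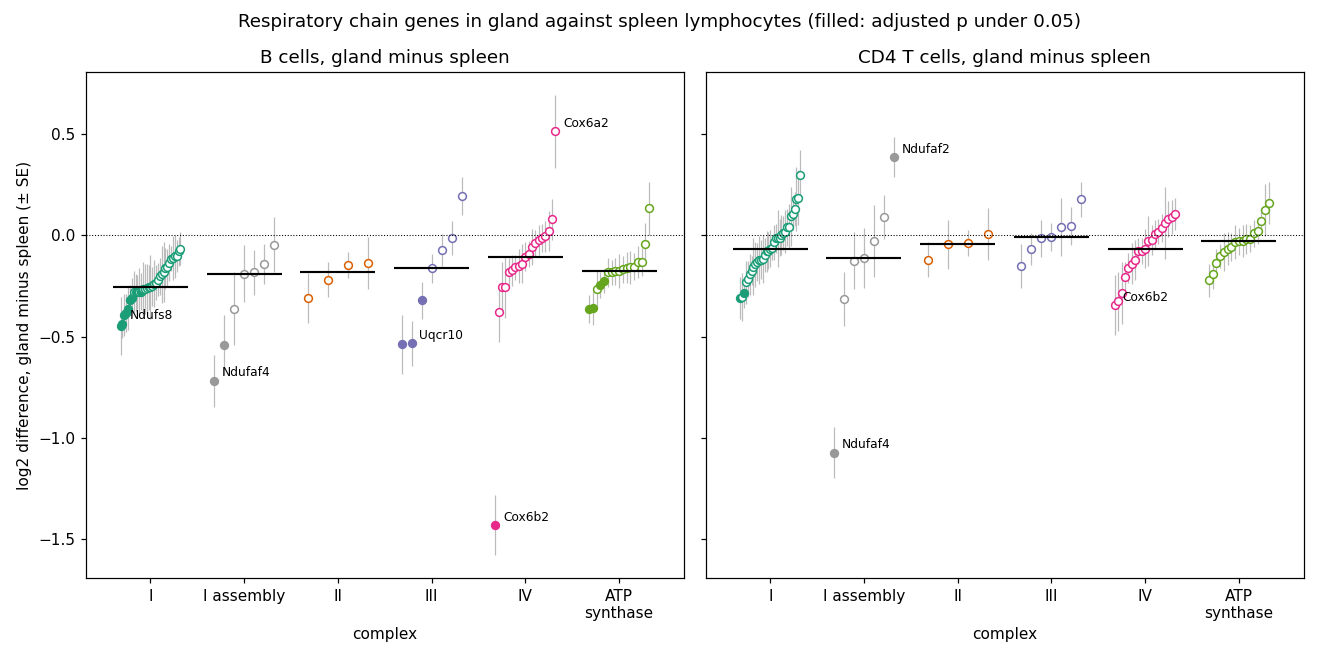
Difference between gland and spleen on the log2 scale for each of the 87 genes (points, with the standard error of the fit), by complex, in B cells (left) and CD4 T cells (right); filled points passed the test and bars are medians. In B cells all 33 complex I genes lie below 0 with a median of -0.25, while in CD4 T cells the complex I median is -0.06.

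In complex I, which oxidises NADH, 10 of the 33 genes were called lower, the median difference was -0.25, and none of the 33 was above 0. Ndufs8 encodes a subunit that holds iron-sulfur clusters on the electron path. It read 8.60, 8.58, 8.52 and 8.55 in gland B cells, against 8.84, 9.04 and 9.12 in spleen B cells. The groups did not overlap, and the difference was -0.44 ± 0.07 (SE, adjusted p = 0.000517, limma). Of its 3 other probe sets, 2 moved by -0.47 and -0.43 and the third, dimmer one by -0.11. Ndufb10, an accessory subunit of the membrane arm, read 9.78, 9.75, 9.68 and 9.82 in gland B cells, against 9.99, 10.11 and 10.13 in spleen B cells. All gland arrays were lower than all spleen arrays (-0.32 ± 0.07, SE, adjusted p = 0.00648, limma). The other 8 were Ndufb3 (-0.45), Ndufs5-ps (-0.39), Ndufb5 (-0.38), Ndufb9 (-0.36), Ndufa5 (-0.31), Ndufa3 (-0.28), Ndufs6 (-0.28) and Ndufb4 (-0.28). Each of these 8 missed the threshold in at least 1 of 15 alternative fits, whereas Ndufs8 and Ndufb10 passed in all 15. Gland B cell array 3 gave the lowest value for much of complex I, with a mean over the 33 genes of 9.08 against 9.36, 9.23 and 9.36 on the other gland B cell arrays.

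The assembly factors showed a larger change in a single gene. Ndufaf4, which helps to build complex I and whose promoter holds the NRF1 letters printed above, read 7.65, 7.32, 7.61 and 7.64 in gland B cells, against 8.11, 8.32 and 8.38 in spleen B cells. The groups were well apart, and the gene was 1.65-fold lower (-0.72 ± 0.13, SE, adjusted p = 0.00107, limma). Its second probe set moved less, by -0.14. Ndufaf1, a factor for the membrane arm, read 5.79, 5.70, 5.41 and 6.01 in gland B cells, against 6.13, 6.32 and 6.36 in spleen B cells, a difference of -0.54 ± 0.15 (SE, adjusted p = 0.0182, limma) that missed the threshold without gland B cell array 3 (adjusted p = 0.0516) or without spleen B cell arrays 2 or 3. Ndufaf2, Ndufaf3, Ndufaf5, Ndufaf6 and Ndufaf8 differed by -0.05 to -0.36 and did not pass.

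Complex II, the succinate dehydrogenase of the tricarboxylic acid cycle, had 0 of 4 genes called, although all 4 differences were below 0 (Sdha -0.22, Sdhb -0.13, Sdhc -0.31, Sdhd -0.15). In complex III 3 of 7 genes were called lower, all of them small accessory subunits. Uqcr10 read 9.15, 8.75, 8.87 and 8.80 in gland B cells, against 9.22, 9.60 and 9.47 in spleen B cells. The gland values were all lower, although the highest gland array came within 0.07 of the lowest spleen array, and the difference was -0.53 ± 0.11 (SE, adjusted p = 0.00322, limma). Uqcr11 read 7.89, 7.69, 7.11 and 7.69 in gland B cells, against 8.08, 8.15 and 8.18 in spleen B cells, a difference of -0.54 ± 0.15 (SE, adjusted p = 0.0175, limma). Gland array 3 was the lowest by a wide margin, and Uqcr11 lost its call without spleen B cell arrays 2 or 3 and when only the B cell arrays were fitted. Uqcrq differed by -0.32 on the probe set used, but by 0.94 on another, dimmer probe set of the gene, so its direction is not settled. The larger subunits of complex III did not pass: Uqcrfs1, the Rieske iron-sulfur protein, differed by 0.19, Uqcrc1 by -0.07 and Uqcrc2 by -0.16.

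In complex IV the median difference was -0.10 and 1 of 19 genes was called. That gene was Cox6b2, the isoform of Cox6b known from testis. Its 4 gland B cell arrays read 4.15, 4.11, 4.26 and 4.34, against 5.43, 5.85 and 5.66 in spleen B cells. The groups were far apart (2.70-fold lower, -1.43 ± 0.15, SE, adjusted p = 6.85e-06, limma), but the gland values lay below the median of all values, the gene had a single probe set, and the deposited values carry no detection calls. Its widely expressed partner Cox6b1 differed by -0.18 and did not pass.

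In the ATP synthase 4 of 17 genes were called lower and 12 of 17 had gland arrays all below the spleen arrays. Of these 4, 3 belong to the peripheral stalk, the stator that holds the catalytic head still while the rotor turns. Atp5pb, subunit b of that stalk, read 9.73, 9.95, 9.84 and 9.85 in gland B cells, against 10.19, 10.16 and 10.27 in spleen B cells (-0.36 ± 0.07, SE, adjusted p = 0.00172, limma). Atp5j, coupling factor 6, read 9.38, 9.55, 9.26 and 9.35 in gland B cells, against 9.72, 9.69 and 9.80 in spleen B cells (-0.36 ± 0.08, SE, adjusted p = 0.00702, limma). Neither gene's groups overlapped, both passed in all 15 alternative fits, and both promoters hold the YY1 letters printed above. Atp5o, which joins the stalk to the head, differed by -0.22 and Atp5g2, a gene for the subunit c of the rotor ring, by -0.24, both called but with calls that were lost in 3 of 15 fits. Atp5h, the remaining stalk subunit, differed by -0.13 and did not pass. The 5 subunits of the head and central stalk (Atp5a1, Atp5b, Atp5c1, Atp5d and Atp5e) differed by -0.18 to -0.04 on the probe sets used, none of them called. A second, dimmer probe set of Atp5c1 differed by -0.96, against -0.13 on the one used, so the size of its change is not settled.

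Of 15 measured subunits listed as central to their complexes (Ndufs1, Ndufv1, Sdha to Sdhd, Uqcrc1, Uqcrc2, Uqcrfs1, Cox4i1, Cox5a, Cox5b, Atp5a1, Atp5b and Atp5c1), 0 were called in B cells. Nevertheless 14 of them were below 0, from -0.31 for Sdhc, with a median over the 15 of -0.16. The list is not complete: Ndufs3, Ndufs7, Ndufs8 and Ndufv2 are also conserved core subunits of complex I, and of these Ndufs8 was called lower, as given above, and the other 3 were not called (Ndufs3 -0.22, Ndufs7 -0.26, Ndufv2 -0.26).

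**Figure D3:**
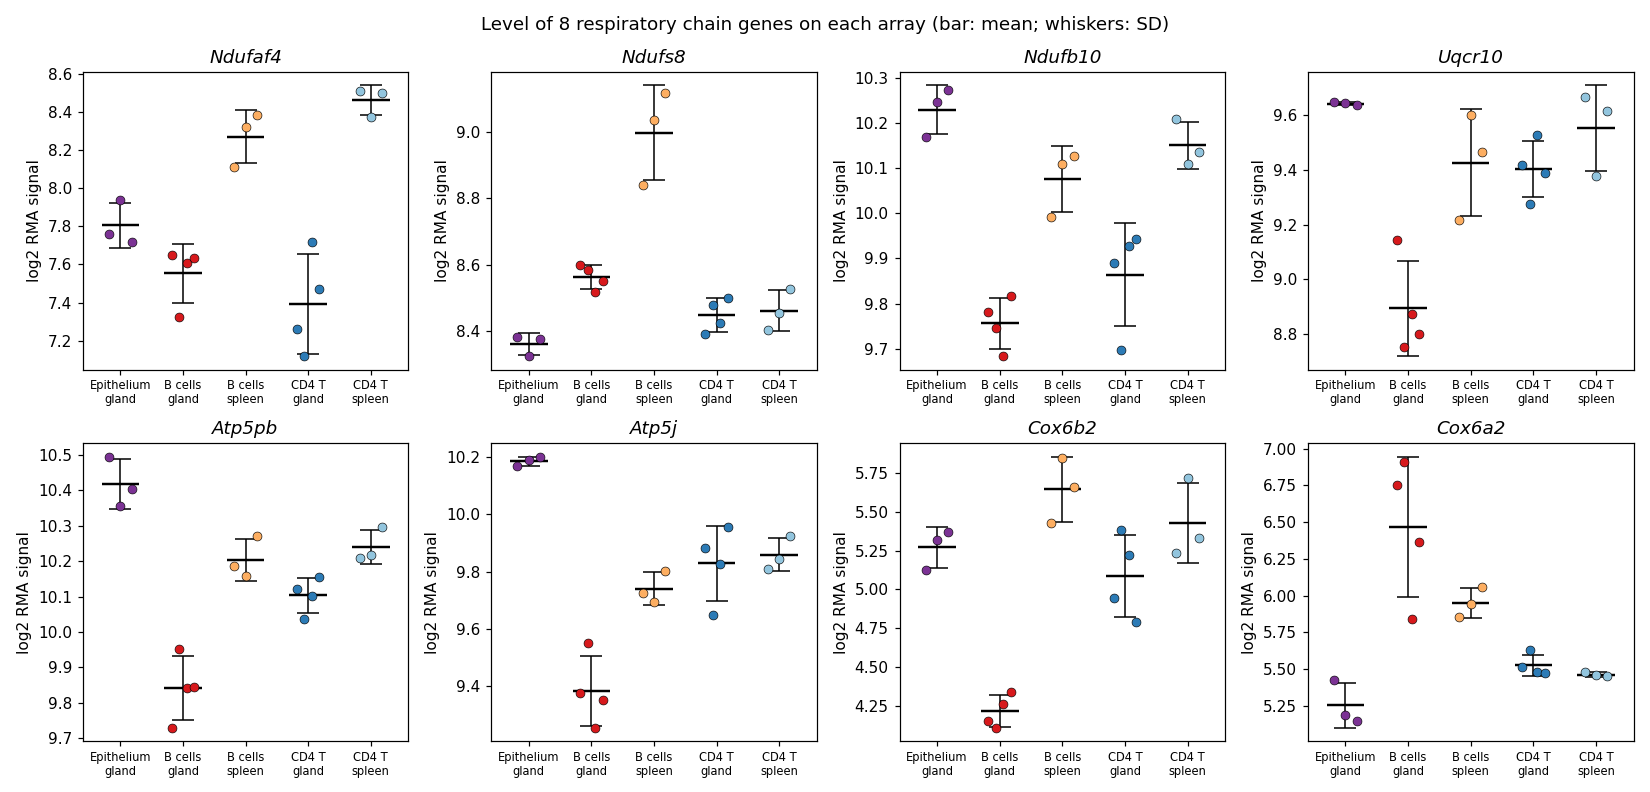
Log2 RMA signal of 8 genes on each array (points), with group means (bars) and SD (whiskers); each panel has its own vertical scale. Ndufaf4 is lower in gland than in spleen in both lymphocytes, Ndufs8 is highest in spleen B cells, and Cox6a2 spreads from 5.84 to 6.91 over the gland B cell arrays.

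The second comparison asks the same of CD4 T cells. Few respiratory chain genes changed: 3 of the 87 were called lower (10.7% of all genes) and 1 higher (12.7% of all genes), and the median difference was -0.04, against -0.03 over all genes. The gland arrays lay wholly below the spleen arrays for 11 genes (17.7% of all genes) and wholly above for 2 (16.8% of all genes). By 2-fold or more, 1 of the 87 was called lower (1.62% of all genes) and 0 higher (5.35% of all genes). Ndufaf4 had the largest difference, with 7.26, 7.12, 7.72 and 7.47 in gland CD4 T cells, against 8.51, 8.38 and 8.50 in spleen CD4 T cells. Every gland value was lower and the gene was 2.10-fold lower (-1.07 ± 0.13, SE, adjusted p = 1.25e-05, limma), while its second probe set moved by -0.21. Ndufb10 read 9.89, 9.70, 9.93 and 9.94 in gland CD4 T cells, against 10.21, 10.11 and 10.14 in spleen CD4 T cells, a difference of -0.29 ± 0.07 (SE, adjusted p = 0.00903, limma).

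Ndufa10, an accessory subunit of complex I, was lower (-0.31, adjusted p = 0.0461, limma), a call lost in 8 of 15 alternative fits. The gene called higher was Ndufaf2, an assembly factor that acts late in the building of complex I. Ndufaf2 read 7.38, 7.24, 7.35 and 7.54 in gland CD4 T cells, against 7.06, 6.91 and 7.01 in spleen CD4 T cells, without overlap (0.39 ± 0.10, SE, adjusted p = 0.00903, limma). None of the 17 ATP synthase genes, the 7 of complex III, the 4 of complex II or the 19 of complex IV was called. Atp5c1 differed by -0.03 on the probe set used, but by -1.24 on its second, dimmer probe set. The count of lower genes was 8 without spleen CD4 T cell array 2, whose mean over the 87 genes (9.002) was below those of arrays 1 and 3 (9.16 and 9.13), and the count of higher genes was 2 without gland CD4 T cell array 2.

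The gland-minus-spleen change was then compared between B and CD4 T cells in the same fit. The difference of the changes passed for 4 of the 87 genes, all with the B cell change lower (6.55% of all genes), and for 0 in the other direction (3.57% of all genes); by 2-fold or more, 1 was lower (3.87% of all genes) and 0 higher (1.22% of all genes). Cox6b2 had the largest difference of changes (-1.09 ± 0.21, SE, adjusted p = 0.00259, limma), with -1.43 in B cells, against -0.34 in CD4 T cells, and passed in all 22 alternative fits. For Ndufs8 the B cell change of -0.44 stood against -0.01 in CD4 T cells, a difference of -0.42 (adjusted p = 0.0118, limma) that just missed when all its probe sets were averaged (adjusted p = 0.0503). For Ndufaf2 the changes were -0.14 in B cells, against 0.39 in CD4 T cells, a difference of -0.53 (adjusted p = 0.0243, limma) that was lost without spleen B cell array 2 (adjusted p = 0.0566), spleen B cell array 3 (0.0599) or spleen CD4 T cell array 2 (0.0691). For Ndufs6, an accessory subunit of the electron-input module, they were -0.28 and 0.13, a difference of -0.41 (adjusted p = 0.0388, limma) that was lost in 10 of 22 fits. Without spleen B cell array 2, spleen B cell array 3 or spleen CD4 T cell array 2, 2 of the 87 genes passed. The median difference of changes over the 87 genes was -0.14, against 0.02 over all genes. For the remaining genes called lower in B cells, including Uqcr10, Atp5pb and Atp5j, a difference between the B cell and the CD4 T cell change was not shown.

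Gland epithelium was set against the average of both lymphocyte populations of the gland, and a gene was called only if its epithelial mean was also above, or below, both lymphocyte means. Of the 87 genes 37 were higher in epithelium (26.7% of all genes) and 16 lower (35.3% of all genes). The median difference was 0.14, against -0.10 over all genes. Among the 8694 genes whose mean level was above the median gene, 28.5% were called higher and 45.0% lower. By complex, 16 of 33 complex I genes were higher and 5 lower, 2 of 4 complex II genes and 4 of 7 complex III genes were higher and none lower, and 8 of 17 ATP synthase genes were higher and 2 lower. Complex IV had 5 of 19 higher and 6 lower, and the assembly factors 2 of 7 higher and 3 lower. Cox4i2 (-0.28) and Cox7b2 (-0.22), both called lower, were below the median of the whole table on every array. Cox6a2 (-0.74, lower) and Cox6b2 (0.62, higher) were dim, with epithelial means of 5.25 and 5.27. In a fit of only genes above the table's median on 3 or more arrays, 37 of 82 were higher and 14 lower. Ndufaf4, called higher (0.33), read -0.43 on its second probe set. Most of the called differences were under 2-fold: 2 genes were called higher and 0 lower by that much (14.9% and 9.81% of all genes). Every epithelial array lay above every gland lymphocyte array for 32 genes (21.5% of all genes) and below for 11 (23.2% of all genes). Without epithelial array 1, which held leukocyte RNA, 34 were higher and 17 lower. The epithelial sort also carried endothelial markers (mean of 4 from 7.83 to 8.34, against at most 4.83 in gland lymphocytes), fibroblast markers (mean of 5 from 6.11 to 6.64, against at most 3.32) and red cell precursor markers (mean of 3 from 7.44 to 7.72, against at most 5.28), and their part in these differences was not tested.

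The largest difference was in Uqcr11, at 9.06, 9.13 and 9.005 in epithelium, against 7.89, 7.69, 7.11 and 7.69 in gland B cells and 8.29, 8.07, 8.29 and 8.20 in gland CD4 T cells. It was 2.23-fold higher (1.16 ± 0.13, SE, adjusted p = 8.03e-07, limma), with no overlap with either lymphocyte. Ndufa9, a complex I subunit near the site of ubiquinone reduction, read 10.36, 10.25 and 10.24 in epithelium, against 9.15, 9.14, 8.88 and 9.14 in gland B cells and 9.43, 9.24, 9.50 and 9.42 in gland CD4 T cells. All epithelial values were above all lymphocyte values, by 1.05 on average (adjusted p = 3.17e-09, limma). Ndufc2, of the membrane arm (0.94), Sdhc, the larger membrane anchor of complex II (0.91), and Ndufb9, also of the membrane arm (0.86), completed the 5 largest increases.

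Of the 15 listed central subunits 8 were called higher in epithelium and 1 lower. Ndufv1, which binds NADH, was higher by 0.80, the Rieske protein Uqcrfs1 by 0.51 and Uqcrc1 by 0.32. In the catalytic head of the ATP synthase, Atp5b was higher by 0.69 (10.46, 10.53 and 10.52 in epithelium, against 9.67, 9.70, 9.79 and 9.68 in gland B cells and 9.80, 10.03, 9.90 and 9.96 in gland CD4 T cells) and Atp5a1 by 0.40. Atp5c1 (0.47) and Sdha (0.29) were also called, but both turned below 0 when probe sets that may read several transcripts were left out (-0.21, adjusted p = 0.221, and -0.24, adjusted p = 0.00763, limma), and Sdha read -0.50 when its probe sets were averaged (adjusted p = 1.1e-05, limma). Cox5b was lower (-0.27), while Cox4i1 (-0.12), Cox5a (0.06), Ndufs1 (-0.18), Sdhb (0.15), Sdhd (0.06) and Uqcrc2 (0.00) did not pass.

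The 5 largest decreases in epithelium were Ndufaf6 (-0.77), Cox6a2 (-0.74), Ndufaf8 (-0.59), Ndufb7 (-0.56) and Ndufa2 (-0.53). Ndufaf6 and Ndufaf8 are assembly factors of complex I, and Ndufb7 and Ndufa2 are accessory subunits of it. Ndufaf6 read 5.47, 5.65 and 5.07 in epithelium, against 6.34, 6.19, 6.18 and 6.42 in gland B cells and 6.04, 6.11, 6.004 and 6.02 in gland CD4 T cells. Ndufb7 read 10.75, 10.85 and 10.86 in epithelium, against 11.43, 11.24, 11.09 and 11.32 in gland B cells and 11.57, 11.41, 11.51 and 11.51 in gland CD4 T cells. For both genes the epithelial values lay below all lymphocyte values.

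**Figure D4:**
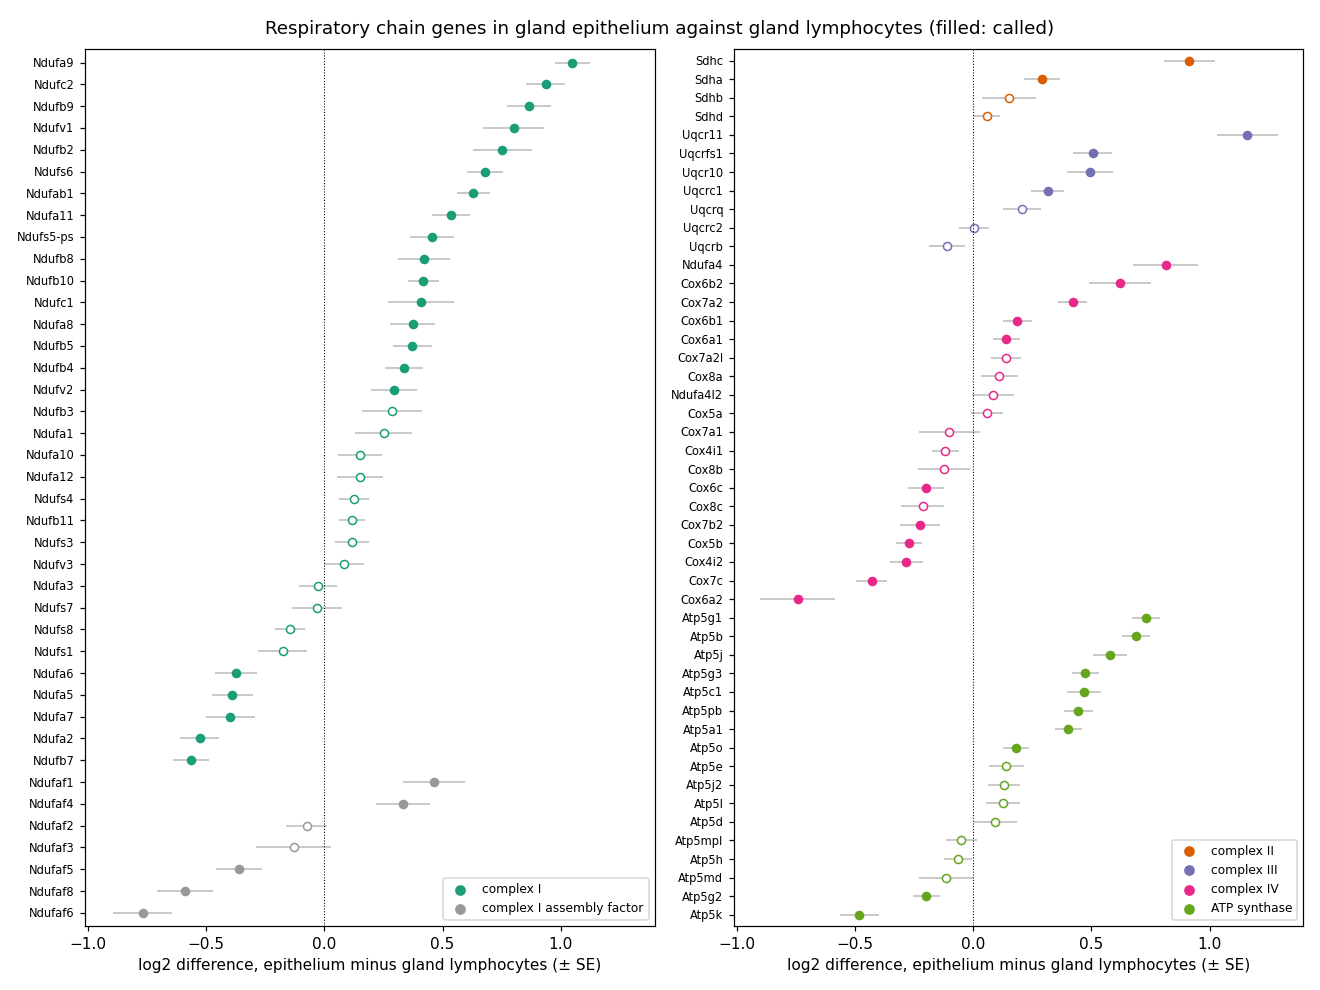
Difference on the log2 scale between gland epithelium and the average of the gland's B and CD4 T lymphocytes for each of the 87 genes (points, with the standard error of the fit), sorted within complex; filled points were called. The points run from -0.77 for Ndufaf6 to 1.16 for Uqcr11, with 37 called higher and 16 called lower.

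Between the lymphocytes of the gland, 36 of the 87 genes were lower in B cells than in CD4 T cells (16.1% of all genes) and 3 were higher (14.3% of all genes), with a median difference of -0.18 against 0.04 over all genes. None reached 2-fold, against 5.97% of all genes lower and 3.73% higher by that much. In the ATP synthase 12 of 17 genes were called lower, all 17 were below 0, and the median was -0.23. Complex I had 14 of 33 called lower and 0 higher. The largest decreases were Cox6b2 (-0.87), Uqcr11 (-0.61), Ndufv3 (-0.56), Uqcrq (-0.52, reversed to 0.23 with adjusted p = 0.519 on another probe set) and Uqcr10 (-0.51). Ndufv3, a regulatory subunit of the NADH-oxidising module, read 9.55, 9.35, 9.26 and 9.50 in gland B cells, against 9.90, 10.00, 10.07 and 9.94 in gland CD4 T cells, with every B cell value lower (adjusted p = 0.000135, limma). The listed central subunits called lower were Sdhc (-0.44), Atp5a1 (-0.23), Atp5b (-0.21), Atp5c1 (-0.24, at 0.10 without the shared probe sets) and Cox5a (-0.23).

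In the spleen 5 of the 87 genes were lower in B cells than in CD4 T cells (11.3% of all genes) and 2 higher (11.1% of all genes), with a median of -0.03. None reached 2-fold, against 4.52% of all genes lower and 4.63% higher by that much. Ndufs8 and Uqcrb were the genes that were higher in spleen B cells. Ndufs8 read 8.84, 9.04 and 9.12 in spleen B cells, against 8.40, 8.45 and 8.53 in spleen CD4 T cells (0.54 ± 0.08, SE, adjusted p = 4.67e-05, limma). Uqcrb, a subunit that binds ubiquinone in complex III, differed by 0.44 in the spleen and by 0.25 in the gland. The lower genes were Ndufv3 (-0.43), Ndufs4 (-0.42), Ndufa8 (-0.40), Ndufa10 (-0.36) and Atp5l (-0.28), and Ndufv3, Ndufs4, Ndufa8 and Atp5l were also called lower in gland B cells than in gland CD4 T cells. The count of 5 was 3 without spleen B cell array 1, spleen B cell array 2 or spleen CD4 T cell array 1, and 2 without spleen CD4 T cell array 3. The gland comparison of B with CD4 T cells shares its B cell arrays with the gland against spleen comparison, so the low values of gland B cells enter both. The difference between the gland and the spleen contrast of B with CD4 T cells is the same quantity as the difference of changes given above, which passed for 4 genes.

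Several complex IV subunits exist as a widely expressed form and a form restricted to muscle, lung or testis. The restricted forms Cox4i2, Cox7a1, Cox7b2, Cox8b and Cox8c had group means between 1.70 and 4.77 in the 5 populations, near or under the median of the table, while the widely expressed forms Cox4i1, Cox7a2 and Cox8a differed between gland and spleen by at most 0.08 in either lymphocyte and were not called there. Cox6a2, the form known from heart and skeletal muscle, differed from these. In gland B cells it read 6.75, 6.91, 5.84 and 6.36, against 5.85, 5.94 and 6.06 in B cells of the spleen. Cox6a2 read 5.43, 5.19 and 5.15 in epithelium and 5.45 to 5.63 on all CD4 T cell arrays. Gland B cells were above gland CD4 T cells in each array (0.94 ± 0.17, SE, adjusted p = 0.000336, limma), while the difference from spleen B cells, with overlapping groups, was 0.52 ± 0.18 (SE, adjusted p = 0.0606, limma). The mean of 6 striated muscle markers was 4.24 to 4.28 in gland B cells, against 4.36 to 4.43 in spleen B cells. Against spleen B cells, 2 of the 6 were called lower in gland B cells and 0 higher. Against gland CD4 T cells, whose mean was 4.20 to 4.37, 2 were called higher in gland B cells and 1 lower. The part of muscle RNA in the Cox6a2 values was not tested.

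Plasmacytoid dendritic cells also carry B220, although the sort was negative for CD11c, which they carry at a low level. Of 5 of their genes, looked up after the Cox6a2 values were seen, Ccr9, Pacsin1 and Klk1 were measured. Ccr9 read 8.88, 8.54, 5.87 and 7.34 in gland B cells, against 5.70, 5.18 and 5.70 in spleen B cells. Pacsin1 read 6.86, 6.69, 5.88 and 6.33 in gland B cells, against 5.54, 5.68 and 5.51 in spleen B cells. Klk1 read 6.65, 6.28, 6.32 and 6.52 in gland B cells, lowest on array 2, against 6.56 to 7.05 in spleen B cells. Ccr9 and Pacsin1 were, like Cox6a2, high on gland arrays 1 and 2 and lowest on array 3, and Pacsin1 stood at 7.25 to 7.97 in CD4 T cells and Ccr9 at 7.14 to 7.71 in those of the spleen, where Cox6a2 was low; their part in the Cox6a2 values was not tested.

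The 3 genes that encode the same mature subunit c of the ATP synthase moved apart in epithelium. Atp5g1 was higher by 0.73 and Atp5g3 by 0.47, whereas Atp5g2 was lower (-0.20, adjusted p = 0.0072, limma). Atp5g2 read 9.63, 9.66 and 9.76 in epithelium, against 9.86, 9.80, 9.68 and 9.86 in gland B cells and 9.93, 9.90, 10.02 and 9.97 in gland CD4 T cells, so that it overlapped the B cell values only. Atp5g1 read 10.32, 10.27 and 10.17 in epithelium, against at most 9.74 on any gland lymphocyte array, although its difference was 0.24 when its probe sets were averaged (adjusted p = 0.0502, limma). In complex IV, Ndufa4 read 9.23, 8.72 and 8.96 in epithelium, against 7.74, 8.15, 8.03 and 8.00 in gland B cells and 8.54, 7.98, 8.28 and 8.51 in gland CD4 T cells (0.81 ± 0.14, SE, adjusted p = 6.85e-05, limma), and its relative Ndufa4l2, known for induction by low oxygen, stood at 4.74 to 5.21 on all 17 arrays.

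Other mitochondrial genes were read as lists, in gland against spleen lymphocytes. The mitochondrial ribosome, which makes the subunits encoded by mitochondrial DNA, had 32 of 73 genes lower and 0 higher in B cells (median -0.35), against 9.87% of all genes lower and 7.79% higher. In CD4 T cells 19 of the 73 were lower and 2 higher (median -0.20), against 10.7% of all genes lower and 12.7% higher. These shares of all genes apply to each list that follows. Those lower in B cells included Mrpl43 (-1.05), Mrpl49 (-0.92) and Mrpl34 (-0.73). In CD4 T cells Mrpl58 (-0.65) and Mrps26 (-0.63) were lower and Mrps6 (1.01) was higher. Assembly factors outside the name rule had 13 of 37 lower and 0 higher in B cells, led by Surf1 (-0.76) and Coa3 (-0.62), both factors for complex IV, and Tmem126b (-0.71), for complex I. In CD4 T cells 10 of these 37 were lower and 2 higher, led by Coa7 (-0.83), Tmem186 (-0.82) and Sco1 (0.81).

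Of 12 electron carrier genes, 3 were lower in B cells, all in ubiquinone synthesis (Coq7 -0.79, Coq9 -0.48, Coq2 -0.35), and 1, cytochrome c (Cycs, 0.38), was higher in CD4 T cells. The tricarboxylic acid cycle was near the shares of all genes, with 2 of 16 lower in B cells (Fh1 -0.48, Suclg1 -0.39) and 3 of 16 in CD4 T cells, led by Suclg2 (-0.61), and 0 higher in either. Of 17 genes of mitochondrial biogenesis and DNA expression, 2 were lower and 1 higher in B cells, and 7 lower and 2 higher in CD4 T cells. The transcription elongation factor Tefm was lower in both (-1.27 in B cells, -1.39 in CD4 T cells), as was Mterf4 (-0.91 and -0.64), and Polg2, the accessory subunit of the mitochondrial DNA polymerase, was higher in both (0.82 and 0.97). Of 8 carriers, the phosphate carrier Slc25a3 was higher in both (0.40 and 0.47) and Slc25a4 (-0.41) and Vdac3 (-0.37) were lower in B cells. The import machinery had 4 of 18 lower and 1 higher in B cells, led by Tomm5 (-0.78), and 3 lower and 1 higher in CD4 T cells, led by Timm9 (-1.02). Of 7 redox defence genes, 1 was lower in B cells, 2 were lower in CD4 T cells, and Glrx5 was lower in both (-0.36 and -0.34).

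In epithelium against gland lymphocytes, where 26.7% of all genes were higher and 35.3% lower, 5 of the 12 electron carrier genes were higher and 2 lower, with Coq8a at 2.44, Coq9 at 1.43 and Etfa at 1.08. The tricarboxylic acid cycle had 5 of 16 higher and 2 lower, led by Suclg2 (1.43), Pdhx (1.07) and Pdha1 (0.75). The biogenesis list went the other way, with 10 of 17 lower and 3 higher and a median of -0.63; Polg2 (-2.05), Pprc1 (-1.33) and Nrf1 (-1.20), the regulator whose motif is printed above, led it. The mitochondrial ribosome (19 of 73 higher and 24 lower) and the other assembly factors (11 of 37 higher and 13 lower) were near the shares of all genes. The import machinery had 2 of 18 higher and 6 lower, the carriers 2 of 8 in each direction and redox defence 4 of 7 higher, among them Sod2 (0.85), and 2 lower.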

How the data were processed

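The authors deposited 1 table of log2 signals (45141 probe sets, 17 arrays); Partek and RMA are named in the submitters' processing notes. It holds no counts and no detection calls, so that precision is limited by the number of arrays. Probe sets were named from the platform annotation, with symbols updated by gene identifier (28689 of 28898 probe sets with 1 gene matched); 551 with several genes were left out. The probe set with the highest mean was kept for each of 17097 genes. Group means of all 17 arrays were fitted together with limma 3.58.1 in R 4.3.3 (lmFit, eBayes) and p-values were Benjamini-Hochberg adjusted over all genes; a call needs an adjusted p under 0.05 and no minimum fold. The code of the test was first run on simulated data with known changes, which checks the code and not the calls reported here. Named genes are the 5 largest called increases and decreases of each comparison, listed central subunits, isoform sets and up to 3 called genes of each pathway list, beside the complex-by-complex account. The members and lists were chosen with earlier results of these data known. The labels do not say that equal replicate numbers pair samples. Deviations from the group mean of arrays with the same number correlated between -0.397 and 0.215. Gland B cell array 2 and gland CD4 T cell array 1 correlated at 0.414. Deviations within a group depend on each other, so these values cannot show whether samples share donors. Alternatives were a 2-fold minimum, averaging probe sets within a gene, no probe sets that may cross-hybridise, a filter on dim genes, median centring, quantile normalization, trended and robust eBayes, only the groups compared, a replicate block, and leaving out each array.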

Additional observations from a re-analysis of the deposited data

Results flagged for a closer look

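In 4 genes the gland-minus-spleen change differed between B and CD4 T cells by a test of that difference: Cox6b2 (-1.09), Ndufaf2 (-0.53), Ndufs8 (-0.42) and Ndufs6 (-0.41), in each case with the B cell change lower.

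Single arrays stood far from the other 3 of their group in 7 of 124 tests of groups of 4 arrays, and chance alone gives about 1 in 20. In gland B cells, array 1 was high for Cox6a1 (10.90, the others from 10.84 to 10.85), array 4 was high for Cox7a2l (10.71, the others from 10.56 to 10.58), array 3 was low for Ndufa9 (8.88, the others from 9.14 to 9.15) and for Ndufs1 (8.49, the others from 8.90 to 8.98), and array 2 was low for Ndufaf4 (7.32, the others from 7.61 to 7.65). In gland CD4 T cells, array 1 was low for Ndufaf8 (8.32, the others from 8.38 to 8.39) and for the mean over the ATP synthase genes (10.35, the others at 10.37).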

How the results depend on the processing

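Of 1121 values of 65 gene results under the alternatives, 1023 kept their direction and call, 93 lost the call in the same direction and 5 turned round: in epithelium against gland lymphocytes Sdha (-0.50 with probe sets averaged, -0.24 without shared probe sets) and Atp5c1 (-0.21), and in gland B against gland CD4 T cells Atp5c1 (0.10) and Uqcrq (0.23), all without shared probe sets where not said otherwise. With a 2-fold minimum the counts were 0 higher and 1 lower for gland against spleen in both B and CD4 T cells, 1 lower for the difference of changes, 2 higher and 0 lower in epithelium, and 0 in both directions for B against CD4 T cells in the gland and in the spleen. In B cells, gland against spleen, 1 gene was higher with the filter on dim genes, without shared probe sets or with quantile normalization, and 10 were lower with only the groups compared, against 28 with quantile normalization or trended and robust eBayes (20 as reported). Uqcrq, named there as lower but not among the 65, turned to 0.16 with probe sets averaged and 0.94 without shared probe sets. In epithelium Ndufaf4, called higher (0.33) and also not among the 65, turned to -0.05 with probe sets averaged (adjusted p = 0.669, limma). In CD4 T cells 5 were lower with probe sets averaged or arrays centred, and 6 with quantile normalization or trended and robust eBayes. Leaving out each array gave 0 to 1 higher and 7 to 23 lower in B cells, 1 to 2 higher and 2 to 8 lower in CD4 T cells, 0 to 1 higher and 2 to 6 lower for the difference of changes, 34 to 38 higher and 14 to 18 lower in epithelium, 2 to 3 higher and 29 to 37 lower for B against CD4 T cells in the gland, and 2 higher and 2 to 4 lower in the spleen. With a replicate block, 17 were lower in B cells, 3 in CD4 T cells and 3 for the difference of changes. That fit gave 14 lower in epithelium (37 higher), and 33 lower in gland and 4 in spleen B against CD4 T cells. The labels do not say that samples with the same number belong together. The causes of these changes were not tested. Precision is limited by 3 or 4 arrays a group, and the dim genes have no detection calls. The submitters' extraction protocol names some RNA samples of lower integrity, by numbers that could not be matched to arrays. The part of RNA quality in the differences was not tested.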
